A study of Rattus norvegicus with 10 samples.

Results

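Genes of the vesicle exocytosis machinery were followed in the paraventricular nucleus of the hypothalamus after 3 days of dehydration. The animals were male Sprague Dawley rats aged 10 to 12 weeks. The set held 58 named genes, and the array's annotation gave 57 of them at least 1 probe set (the oligonucleotide group that measures 1 transcript) with that single symbol. Over the whole array, 14217 genes had a probe set with a single symbol after symbols were updated through Entrez identifiers. Where a gene had several, the probe set with the highest mean over the arrays stood for it. Doc2a had none and was not analysed here. Each group had 5 samples, and each sample was RNA of tissue pooled from 5 rats and hybridised to 1 Affymetrix array. Per the series' design text, the samples came from different sets of rats. No genotype, transgene or drug is named for either group. The labels do not describe how rats were dehydrated or what control rats had to drink. The series' design text names the supraoptic nucleus where every sample label names the paraventricular nucleus, and the sample labels were followed.

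Peptide hormones leave a neuron when a filled vesicle fuses with the cell membrane. SNARE proteins on vesicle and membrane zip together and force the membranes to merge, and some of the synaptotagmins sense the calcium that triggers the step. Rab GTPases and their effectors bring the vesicle to its site, and priming and active zone proteins make it ready to fuse. The magnocellular neurons of this nucleus release vasopressin and oxytocin by exocytosis of large dense-core vesicles, in the posterior pituitary and from dendrites. Which of the genes serve at each site was not tested. Dehydration is a stimulus to vasopressin release. The comparison asked whether transcripts of the exocytosis machinery differed after 3 days of dehydration.

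Signals were linear array units, scaled by the authors to a common level on each array, and differences are dehydrated minus control on the log2(signal + 3.72) scale, on which differences at low signals are compressed. Signals are given with their SD (n = 5 pools) and differences with their standard error. Adjusted p are from the limma fit to 18629 probe sets, those with a mean signal of 24.1 or more, with Benjamini-Hochberg adjustment over all of them and a threshold of 0.05. Of the 57 genes, 47 passed that filter. Vasopressin and oxytocin, the magnocellular hormones, gave 3531 ± 633 and 4090 ± 389 in control pools. They differed by 0.50 and 0.24 in dehydrated pools (adjusted p = 0.0504 and 0.218). The parvocellular hormone genes Crh, Trh and Sst gave 282 ± 94.3, 615 ± 56.5 and 1165 ± 275 in control pools. Which nucleus these transcripts came from was not tested. All 3 had positive differences, of 0.19, 0.08 and 0.50, and 0 passed in limma (adjusted p = 0.726, 0.648 and 0.133). Before adjustment 1 of 3 was under 0.05 (33.3%, against 12.7% of all probe sets). The lineage factor Sim1 was dim, at 62.1 ± 15.4 in control and 79.2 ± 16.5 in dehydrated pools (difference 0.35, adjusted p = 0.414). Otp and Pou3f2 lay below the filter, and Otp, untested, was at 1.1 to 7.7 in control and 9.3 to 18.8 in dehydrated pools. Of the lateral hypothalamic genes, Pmch gave 3867 ± 462 and 3958 ± 794, and Hcrt 1586 ± 875 in control and 661 ± 377 in dehydrated pools. The Hcrt difference of -1.28 ± 0.44 (adjusted p = 0.233) was the lowest of all tested probe sets, with overlapping groups, and the part of neighbouring tissue in the values below was not tested. In tissue pools, fewer cells of a type and less RNA per cell cannot be told apart. The titles are sample codes that follow on from each other within each group, except that the code of control replicate 5 lies apart. The labels do not say what the codes stand for, and no other label of a batch was given.

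Few of the exocytosis genes separated the groups. Of the 47 genes, 1 rose (Pclo), 0 fell and 46 did not pass, against 0.58% of all probe sets called in either direction (0.397% higher and 0.183% lower) and 0.697% of genes at 1 probe set each. The median difference was 0.03, against -0.0048 over all tested probe sets, and 28 of the 47 were positive. Before adjustment, 11 of the 47 (23.4%) had p under 0.05, 9 of them positive and 2 negative, against 12.7% of all probe sets (6.7% higher and 6.01% lower). The 9 include Pclo and Rab3d, whose control means of 20.7 and 18.5 lay below the filter. Both were tested because of their dehydrated signals, so the counts of risen and positive genes are a description alone. Rims1, with a negative difference, passed the filter through its control signals. The groups did not overlap for 2 genes, Pclo (higher) and Sv2a (lower), or 4.26%, close to the 3.36% of all probe sets (1.94% higher and 1.42% lower). For 22 genes the difference was smaller than 0.1 in size. The 95% interval lay inside a 1.25-fold change either way for 21 genes and inside a 1.5-fold change for 43. Those of Pclo, Rab3d, Rims1 and Rims2 reached beyond 1.5-fold.

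**Figure D1:**
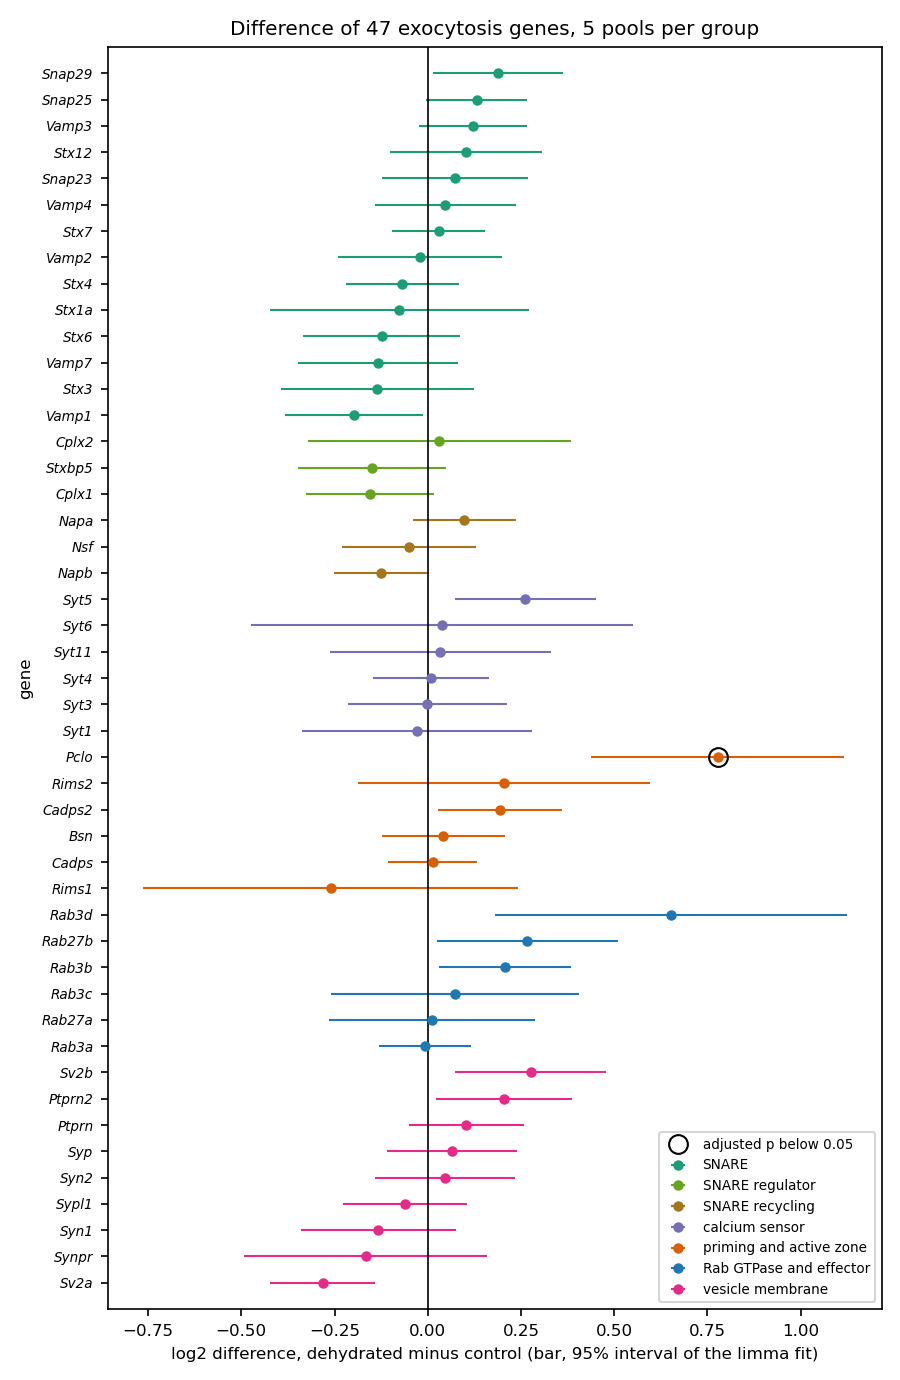
Log2 difference, dehydrated minus control, of the 47 tested exocytosis genes (horizontal axis, points) with the 95% interval of the limma fit (bars), ordered by role (colours) and by size within a role. The ringed point is Pclo at 0.78, the gene past the threshold; 36 of the 47 intervals include 0.

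Among the priming and active zone genes, piccolo was the gene that passed. Pclo encodes piccolo, a very large scaffold protein of the presynaptic active zone. Its signals were 17.4, 16.6, 23.7, 27.9 and 17.7 in the control pools and 36.7, 41.2, 33.9, 37.5 and 38.1 in the dehydrated pools. Every dehydrated value lay above every control value. Pclo rose from 20.7 ± 4.94 to 37.5 ± 2.63 , which was 0.78 ± 0.16 on the log2 scale (adjusted p = 0.0371). The gene was dim, and its control mean lay below the filter, so that it was tested because of its dehydrated signals. Without a filter its adjusted p was 0.0977. With the pseudocount 4 times larger the difference was 0.57, and with a pseudocount of 64 it was 0.26, both past the threshold. A second probe set of Pclo, with 24.5 in control and 27.0 in dehydrated pools, differed by 0.12 (adjusted p = 0.842), and the mean over both differed by 0.45 (adjusted p = 0.205). Leaving out any 1 array except control replicate 4 also ended the call, with adjusted p from 0.0513 without control replicate 5 to 0.0964 without control replicate 2. Over these and the other alternatives to the fit the adjusted p of Pclo ran from 0.0261 to 0.205.

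The other priming and active zone genes did not pass. Cadps2 encodes CAPS2, which primes dense-core vesicles for fusion. Its signals were 407, 353, 364, 342 and 422 in control and 390.4, 415, 494, 449.8 and 411 in dehydrated pools. The groups overlapped, and the difference was 0.19 ± 0.08 (adjusted p = 0.320). Its paralog Cadps, which does the same work, was among the steadiest genes of the set, at 1062 ± 26.0 in control and 1074 ± 74.7 in dehydrated pools (difference 0.01, 95% interval -0.11 to 0.13), although a dimmer probe set of it differed by -0.30 (adjusted p = 0.419). Bassoon, the scaffold partner of piccolo encoded by Bsn, had 488 ± 51.7 and 502 ± 35.3, a difference of 0.04 with a 95% interval of -0.12 to 0.21. Rims1 and Rims2, whose proteins tie vesicles, Rab3 and calcium channels together, were dim and differed by -0.26 and 0.20, with intervals from -0.76 to 0.24 and from -0.19 to 0.60. The mean of Rims1 was below the filter in the dehydrated group (22.9) and above it in the control group (28.6). The Munc13 genes Unc13a and Unc13b, whose proteins open syntaxin for SNARE assembly, lay below the filter and were not tested.

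The vesicle membrane genes held the second smallest p of the set. Sv2a encodes a glycoprotein that spans the vesicle membrane and is the target of the drug levetiracetam. It gave 535, 511, 566, 546 and 596 in control and 408, 488, 449, 484 and 435 in dehydrated pools. All dehydrated values lay below all control values. The difference was -0.28 ± 0.07 (adjusted p = 0.0677), which missed the threshold in the fit and under each alternative setting tried (adjusted p from 0.0514 to 0.170).

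Sv2b, the paralog of Sv2a, differed in the other direction without passing. Its signals were 745, 768, 675, 729 and 534 in control and 781, 711, 879.5, 964 and 836 in dehydrated pools. Only dehydrated replicate 2 lay within the control range. The difference was 0.28 ± 0.10 (adjusted p = 0.239), and without control replicate 5, the lowest array, it was 0.19. Averaged with 2 probe sets below the filter, Sv2b differed by -0.12.

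The receptor-type phosphatase relatives Ptprn and Ptprn2 encode IA-2 and IA-2beta, membrane proteins of dense-core vesicles. Ptprn2 gave 376, 418, 427, 419 and 486 in control and 605, 483, 450.4, 481 and 442 in dehydrated pools. Dehydrated replicate 1 stood above the others, and the difference of 0.20 ± 0.09 (adjusted p = 0.339) became 0.13 without it. Ptprn gave 570.3, 545, 599, 609 and 734 in control and 650.2, 689, 628, 631 and 673 in dehydrated pools. Here control replicate 5 was the highest of all 10, and the difference was 0.10 ± 0.07 (adjusted p = 0.579). The pituitary hormone genes Gh1 and Prl were high on the same dehydrated replicate 1, where Gh1 had a signal of 389 against 3 to 28.4 on the other arrays, and Prl 210.2 against 0.7 to 7.6. The part of this in the values of that array was not tested.

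Syn1 encodes synapsin I, which tethers vesicles to the cytoskeleton. It gave 274, 294, 306, 275 and 350.1 in control and 289, 231, 242, 274 and 336 in dehydrated pools. The groups overlapped widely, with a difference of -0.13 ± 0.10 (adjusted p = 0.599). Syn2, the related synapsin II gene, differed by 0.05. Synaptophysin, the abundant vesicle protein encoded by Syp, differed by 0.06 with a 95% interval of -0.11 to 0.24. Its relatives Sypl1 and Synpr differed by -0.06 and -0.17. Sv2c and Syngr1 lay below the filter.

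**Figure D2:**
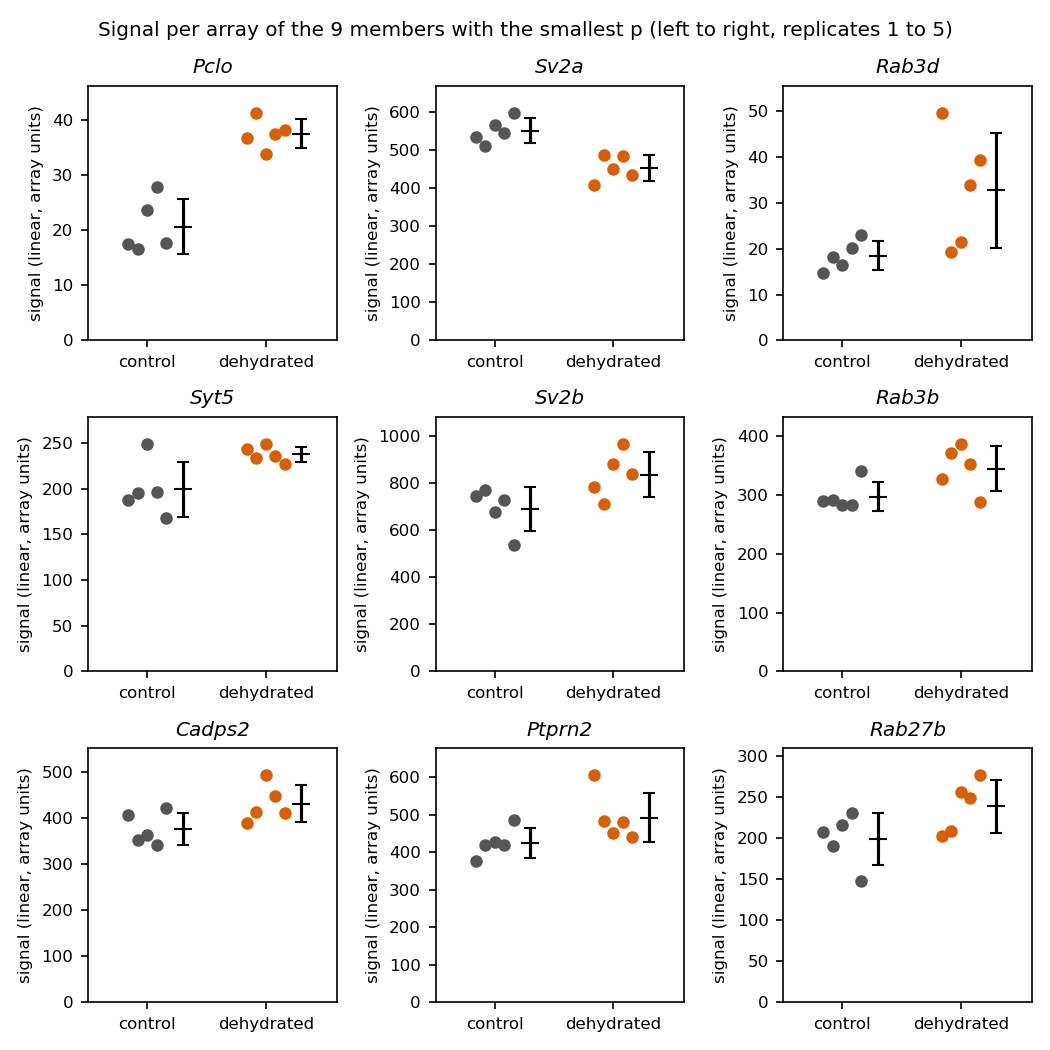
Signal (vertical axis, linear array units from 0) in each pool for the 9 genes with the smallest p, with control pools in grey, dehydrated pools in orange and replicates 1 to 5 from left to right; the black mark and bar give the mean and SD of 5 pools. Pclo and Sv2a are the genes whose groups do not overlap, and dehydrated replicate 1 is the highest value for Rab3d (49.6) and Ptprn2 (605).

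Of the 6 tested Rab GTPase genes 5 had positive differences, 3 with an unadjusted p under 0.05, and 0 passed in limma, where 48.8% of all probe sets were positive and 12.7% had such a p. Among the 3, Rab3d passed the filter through its dehydrated signals alone. Rab3 and Rab27 proteins sit on secretory vesicles and recruit the effectors that dock them. Rab3d gave 14.7, 18.2, 16.5, 20.2 and 23.1 in control and 49.6, 19.3, 21.4, 33.9 and 39.5 in dehydrated pools. Dehydrated replicates 2 and 3 lay within the control range and the other 3 above it. The difference was 0.65 ± 0.22 (adjusted p = 0.231), and 0.50 without dehydrated replicate 1 (adjusted p = 0.393).

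Rab3b gave 289, 291, 282, 284 and 342 in control and 327, 371, 387, 352 and 289 in dehydrated pools. The controls other than replicate 5 lay close together and below 4 of the 5 dehydrated pools. The difference was 0.21 ± 0.08 (adjusted p = 0.315), and 0.26 without control replicate 5 (adjusted p = 0.144). Rab27b gave 208, 191, 216, 231 and 148 in control and 202, 209, 256, 249 and 277 in dehydrated pools. Dehydrated replicates 3, 4 and 5 lay above the controls, and the difference was 0.27 ± 0.11 (adjusted p = 0.351). A dimmer probe set of Rab27b differed by -0.0051. Rab3a, the main neuronal Rab3, had 1046 ± 37.2 and 1042 ± 79.4, a difference of -0.01 with a 95% interval from -0.13 to 0.11. Another probe set of Rab3a differed by -0.13. Rab3c and Rab27a differed by 0.07 and 0.01, and rabphilin (Rph3a), an effector of both families, lay below the filter.

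The SNARE genes showed no call, with 7 of 14 positive and a median difference of 0.0040. In limma 0 passed, against 0.58% of all probe sets. Snap29 and Vamp1 had an unadjusted p under 0.05 (2 of 14, or 14.3%, against 12.7% of all probe sets). Of the membrane SNAREs of neurons, Snap25 gave 2779, 2890.2, 2665, 2824 and 2969 in control and 3389.9, 2704, 2851, 3195 and 3383 in dehydrated pools. Dehydrated replicates 1, 4 and 5 lay above the controls and the other 2 among them. The difference was 0.13 ± 0.06 (adjusted p = 0.408). Its widely expressed relative Snap23 differed by 0.07. Stx1a, which encodes the neuronal membrane syntaxin, gave 67.3, 51.5, 57.6, 58.1 and 88.2 in control and 59.8, 53.5, 43.6, 66.2 and 83.6 in dehydrated pools. The groups covered much the same range, with a difference of -0.08 ± 0.16 (adjusted p = 0.881).

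Snap29, which acts in fusion at several inner membranes, gave 141, 133, 134, 114 and 147 in control and 151, 144, 155, 158 and 156 in dehydrated pools. All but dehydrated replicate 2 lay above the control range. The difference was 0.19 ± 0.08 (adjusted p = 0.355). The syntaxins Stx3, Stx4, Stx6, Stx7 and Stx12, which serve the cell membrane, the trans-Golgi network and endosomes, differed by -0.13 to 0.10, with adjusted p from 0.632 to 0.873.

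The vesicle SNAREs are the VAMP proteins. Vamp2, the synaptobrevin of most synaptic and dense-core vesicles, gave 300.1, 338, 321, 257 and 412 in control and 353, 315, 284, 294 and 345 in dehydrated pools. All dehydrated values lay inside the control range, and the difference was -0.02 ± 0.10 (adjusted p = 0.952, 95% interval -0.24 to 0.20). Vamp1, its close paralog, gave 611, 664, 638, 599 and 599.7 in control and 591, 522, 421, 582 and 617 in dehydrated pools. Dehydrated replicate 3 was lowest, and the difference of -0.20 ± 0.09 (adjusted p = 0.361) became -0.11 without it. Another probe set of Vamp1 differed by -0.37 (adjusted p = 0.394).

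Vamp3, or cellubrevin, gave 345, 328, 374, 312 and 344 in control and 341, 401, 374, 386 and 353 in dehydrated pools, with overlapping groups and a difference of 0.12 ± 0.07 (adjusted p = 0.477). Vamp7, which acts in fusion of lysosomes and late endosomes, gave 101, 136, 115, 124 and 114 in control and 103, 93.1, 124, 115 and 102 in dehydrated pools. Its groups overlapped too, and the difference was -0.13 ± 0.10 (adjusted p = 0.610). Vamp4 differed by 0.05, while its dimmer probe set, with 59.9 in control and 70.5 in dehydrated pools, had groups that did not overlap (difference 0.22, adjusted p = 0.345).

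**Figure D3:**
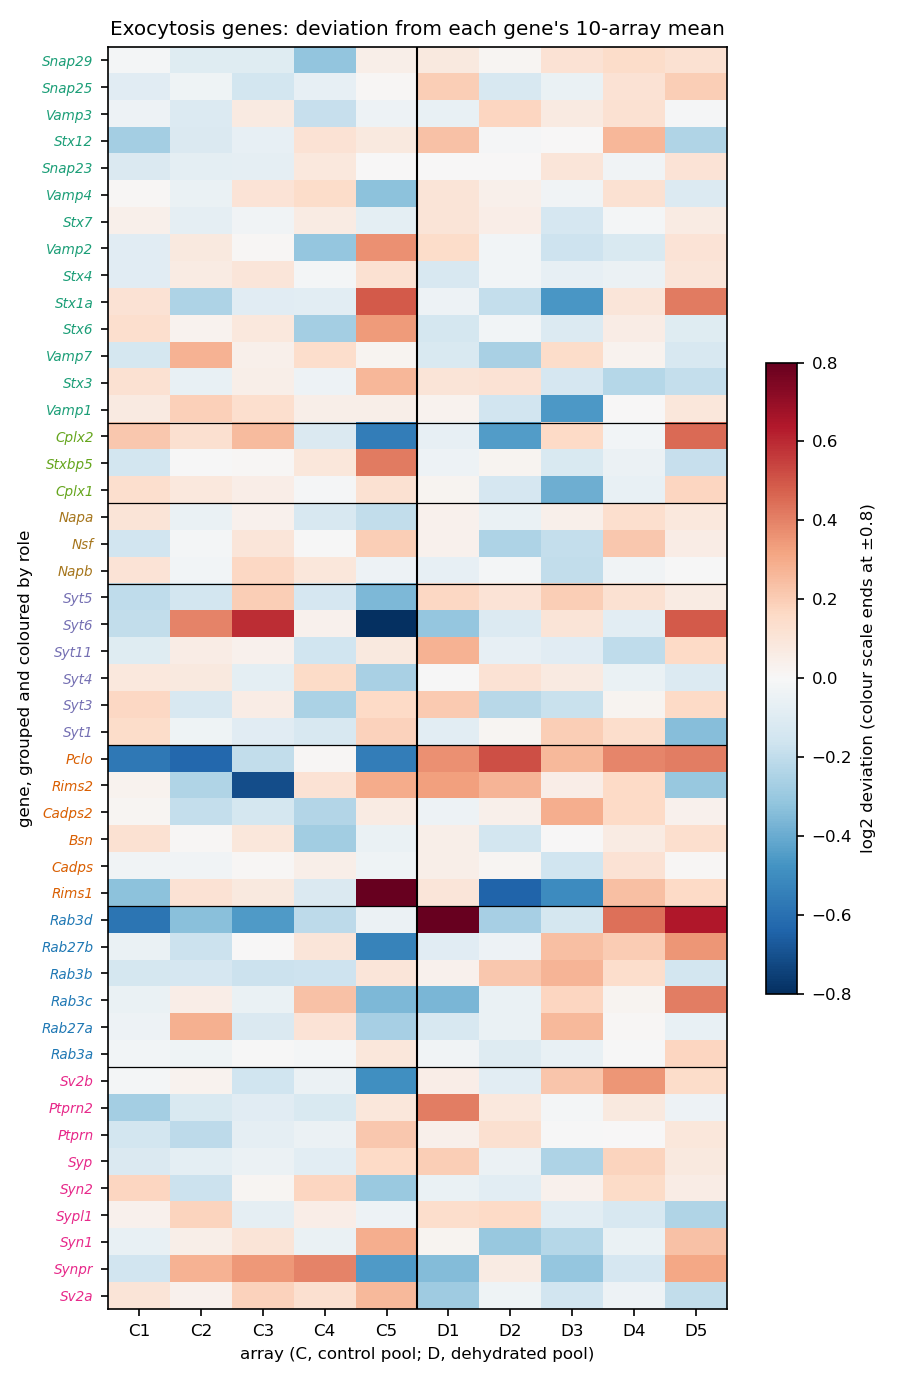
Log2 deviation of each of the 47 tested genes (rows, grouped and coloured by role) from its mean over the 10 arrays (columns; C, control pools, D, dehydrated pools), in red above and in blue below the mean, with the colour scale ending at 0.8 either way. Sv2a changes colour between the groups, Pclo does so in all pools but control replicate 4, which lies close to the mean, and control replicate 5 holds the strongest colours in many rows.

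Of 6 tested regulators and recyclers of SNARE complexes 0 passed in limma, and 0 had an unadjusted p under 0.05. The shares of all probe sets were 0.58% and 12.7%. Complexins clamp and promote SNARE zippering. Cplx1 gave 1018, 982, 959.8, 922 and 1010.1 in control and 942, 846, 706, 890.3 and 1043 in dehydrated pools. Dehydrated replicates 2, 3 and 4 lay below the controls, and the difference was -0.15 ± 0.08 (adjusted p = 0.442). A dimmer probe set of Cplx1 differed by -0.38 (adjusted p = 0.279), and Cplx2 by 0.03. Tomosyn, encoded by Stxbp5, binds syntaxin and holds fusion back. Stxbp5 gave 188, 208, 209.8, 222 and 279.8 in control and 202, 212, 192, 202 and 183 in dehydrated pools. Control replicate 5 was highest, and the difference was -0.15 ± 0.09 (adjusted p = 0.528), whereas another probe set differed by 0.19 (adjusted p = 0.382).

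NSF is the ATPase that takes spent SNARE complexes apart, with the SNAP adaptor proteins encoded by Napa and Napb. Napa gave 689, 618, 658, 586 and 559.8 in control and 658, 619.6, 659, 706 and 680.5 in dehydrated pools. Napb gave 795, 726, 827, 785 and 715 in control and 703, 726, 641, 722 and 736 in dehydrated pools. Both genes overlapped between the groups, with differences of 0.10 ± 0.07 for Napa (adjusted p = 0.557) and -0.12 ± 0.06 for Napb (adjusted p = 0.407). Nsf differed by -0.05, and its 2 dimmer probe sets by 0.08 and -0.05.

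Of the synaptotagmin and Doc2 genes, placed under the role of calcium sensor in the figures, 6 were bright enough to test. In limma 0 of the 6 passed. Syt5 had the smallest p and was the single one under 0.05 before adjustment (1 of 6, or 16.7%, against 12.7% of all probe sets). It gave 187, 195, 248, 197 and 168 in control and 243, 234, 248, 235 and 227 in dehydrated pools. The dehydrated values lay close together, above all controls but replicate 3. The difference was 0.26 ± 0.09 (adjusted p = 0.231), and the adjusted p was 0.0805 without control replicate 3, the lowest over all alternatives. Syt4, an activity-regulated synaptotagmin found on dense-core vesicles of the neurohypophysis, gave 1437 ± 161 in control and 1440.3 ± 93.0 in dehydrated pools (difference 0.01, 95% interval -0.15 to 0.17). A dim probe set of Syt4 differed by 0.30 (adjusted p = 0.460).

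Syt1, the fast calcium sensor of synaptic vesicles, had a dim probe set. It gave 36.7, 31.9, 30.6, 29.7 and 37.8 in control and 30.8, 33.3, 38.2, 36.5 and 25.1 in dehydrated pools. The groups overlapped, with a difference of -0.03 ± 0.15 (adjusted p = 0.954). Syt3, Syt6 and Syt11 differed by less than 0.1 in size, with 95% intervals from -0.21 to 0.21, -0.47 to 0.55 and -0.26 to 0.33. Syt2, Syt7, Syt9, Syt13 and Doc2b lay below the filter. In all, 10 of the set's genes did so, with mean signals of 5.10 to 16.6 and single values of 1.6 to 25.7. All 10 had overlapping groups. A low signal does not show that a transcript is absent, since probe sets differ in how well they bind.

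Related genes were also set against each other within each array, which cancels the array's scale. Of 21 pairs, 17 had both genes tested. By exact two-sided permutation of the arrays, 0 of the 17 passed after Benjamini-Hochberg adjustment over the pairs and 3 had an unadjusted p under 0.05, 1 of them a pair with Pclo. The smallest p this design can give is 0.0079. At that value 1 pair alone would have an adjusted p of 0.135, so several pairs with low exact permutation p would be needed for any to pass. The log2 ratio of Sv2a to Sv2b was lower by 0.56 in dehydrated pools (exact permutation p = 0.0159, adjusted 0.135, lower in 4 of 5 dehydrated pools than in any control). Relative to its control mean that ratio was -0.62, -0.23, -0.65, -0.67 and -0.62 in the dehydrated pools, against -0.27 to 0.47 in the controls. Napa moved against Napb by 0.22 (exact permutation p = 0.0159, adjusted 0.135), with dehydrated ratios of 0.21, 0.08, 0.35, 0.28 and 0.20 against -0.11 to 0.10 in controls. Bsn against Pclo differed by -0.74, a value given as a description alone, since Pclo passed the filter through its dehydrated signals, with control replicate 4 at -0.65 among the dehydrated values of -1.03 to -0.63. The fourth smallest p was that of Rab27a against Rab27b, at -0.25 (exact permutation p = 0.103, adjusted 0.432).

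**Figure D4:**
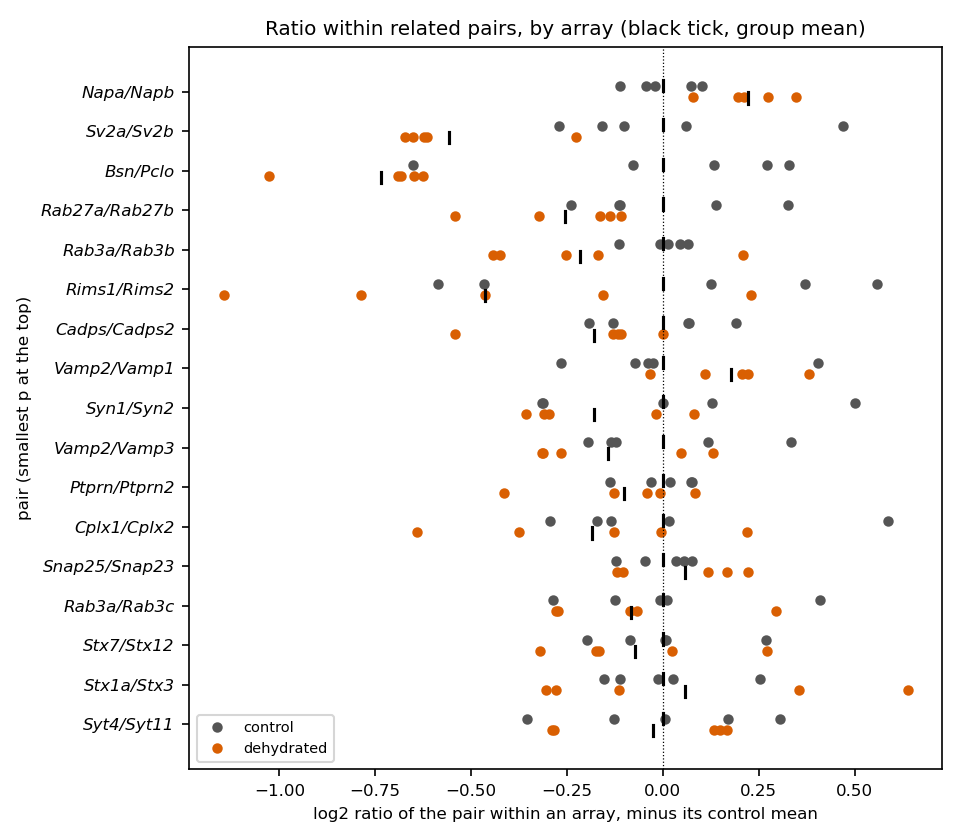
Log2 ratio of the genes of each pair within an array, minus the control mean of that pair (horizontal axis), for 17 pairs (rows, smallest p at the top), with 5 control pools in grey, 5 dehydrated pools in orange and group means as black ticks. The ratio of Sv2a to Sv2b is shifted to the left by 0.56, and the lower rows show groups that overlap.

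Several genes had more than 1 probe set past the filter, which gave a check on single values. There were 17 such further probe sets for 15 genes. Of these, 11 had the same sign as the brightest probe set of the gene and 6 the opposite sign. In limma 0 of the 17 passed, against 0.58% of all probe sets. Those of Cplx1, Stxbp5, Synpr and Vamp4 lay under 0.05 before adjustment (4 of 17, where 12.7% of all probe sets did). That of Vamp4 alone had groups that did not overlap (1 of 17, against 3.36% of all probe sets). The lower value of Synpr at its brightest probe set (-0.17) was -0.33 at the other (adjusted p = 0.306).

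**Figure D5:**
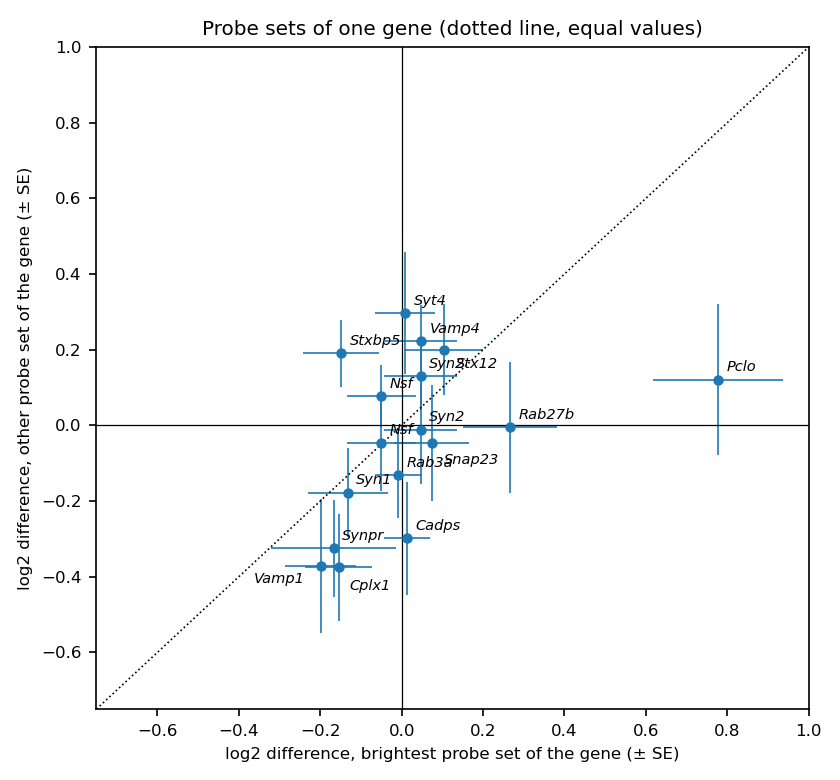
Log2 difference of the brightest probe set of a gene (horizontal axis) against that of a further probe set of the same gene (vertical axis), each with its standard error, for 17 further probe sets. Points on the dotted line have equal values, and Pclo lies far from it at 0.78 and 0.12.

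A wider list of 83 further SNAREs, tethers, Rab regulators and active zone genes had 56 tested members. Of these 0 passed in limma, 9 had an unadjusted p under 0.05 (16.1%, against 12.7% of all probe sets), and the median difference was -0.03 with 25 positive. The smallest p was that of S100a10, whose protein pairs with annexin A2 at the cell membrane, at 182 ± 21.7 in control and 243 ± 25.4 in dehydrated pools (difference 0.41 ± 0.10, adjusted p = 0.0627). It passed with array weights (adjusted p = 0.0399). Next came Anxa7 (0.27), the vesicle motor gene Myo5a (0.43) and the carrier membrane gene Scamp2 (-0.38), with adjusted p of 0.173, 0.211 and 0.279.

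A list of vesicle recycling genes and vesicle transporters had 30 tested members of 38. In limma 0 passed, 8 had an unadjusted p under 0.05 (26.7%, against 12.7% of all probe sets), 15 were positive and the median difference was -0.02. The recycling endosome GTPase gene Rab11a had the smallest p, at 409 ± 21.6 in control and 493 ± 41.5 in dehydrated pools (difference 0.27 ± 0.07, adjusted p = 0.0954). Ston2, Sh3gl1 and Dnm3, all of the endocytic machinery, differed by -0.39, 0.31 and 0.45 with adjusted p from 0.213 to 0.230.

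The same pools differed in other markers, whose part in the values above was not tested. Of 4 peptide genes of magnocellular neurons, Vgf and Pdyn rose by 0.62 and 0.81 (adjusted p = 6.2e-05 and 0.000572). The other 2, Avp and Oxt, differed by 0.50 and 0.24 and did not pass (adjusted p = 0.0504 and 0.218). The 2 that passed were 50% of the list, against 0.397% of all probe sets called higher. Of the exocytosis genes, Pclo and Rab3d differed by 0.78 and 0.65, and the others by at most 0.28 in size. Of 12 general neuronal markers 0 passed in limma, and 3 had an unadjusted p under 0.05 (25%, against 12.7% of all probe sets). Of the 12, 3 were positive. Their summed signals ran from 13614 to 14649 in control and from 12532 to 14121 in dehydrated pools, with no marker at 0. Of 11 oligodendrocyte markers 1 fell (Ermn, by 0.63, adjusted p = 0.0255), or 9.09% against 0.183% of all probe sets called lower. In that list 0 were positive, 9 had an unadjusted p under 0.05 (81.8%, against 12.7%) and 4 had groups that did not overlap (36.4%, against 3.36%). The oligodendrocyte sums did not overlap either, at 8220.2 to 9863 and 7509 to 7905. Microglial sums ran from 751 to 853 in control and from 661 to 762 in dehydrated pools, astrocyte sums from 13620 to 15240 and from 13522 to 15107, and endothelial sums from 866 to 1129 and from 1042 to 1157. Of the tested markers in these lists 0 of 5 microglial, 3 of 8 astrocyte and 6 of 7 endothelial ones were positive, against 48.8% of all probe sets. In limma 0 passed, against 0.58%. An unadjusted p under 0.05 was found for 1, 3 and 1 of them (20%, 37.5% and 14.3%, against 12.7% of all probe sets). The groups did not overlap for 0 microglial, 0 astrocyte and 1 endothelial marker (14.3% of the endothelial ones, against 3.36%). The smallest p were those of Aif1 (-0.42, adjusted p = 0.088), Gfap (-0.38, adjusted p = 0.0553) and Slco1a4 (0.28, adjusted p = 0.0919, groups not overlapping).

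RNA quality controls gave no call. For Gapdh, the 3' over 5' signal on the log2 scale was 1.41 ± 0.21 in control arrays and 1.58 ± 0.22 in dehydrated arrays (exact permutation p = 0.254, n = 5 each). For beta-actin the ratio was larger, at 2.70 ± 0.33 and 2.84 ± 0.17 (exact permutation p = 0.516). Control replicate 5 had the lowest ratio for each of these genes and also stood apart in the exocytosis set. It held the highest or the lowest value of 10 arrays for 21 of the 47 genes, where the other arrays did so for 4 to 11. The SD of its deviations over the 47 genes was 0.33, against 0.14 to 0.22 on the others. Without it 0 of the genes passed, and the median difference over the 47 was 0.01.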

How the data were processed

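RNA from 10 pools of 5 rats each was measured on Affymetrix Rat Genome 230 2.0 arrays. The deposited values were probe set intensities on a linear scale, and the submitters' processing notes name GCOS 1.2 as the authors' software, with no algorithm stated. The mean after trimming 2% at each end was 100.03 on each array, as tested on the values. No scaling was added, and log2(signal + 3.72) was taken, with a pseudocount of 0.1 of the median array median. After 57 control probe sets were left out, probe sets at or above the 40th percentile of mean signal (24.1) were fitted with lmFit and eBayes (trend) of limma 3.58.1 in R 4.3.3. Settings varied were the scaling (median centring or quantile), larger pseudocounts, no and a stricter (60th percentile) filter, other variance models, array weights, each array left out with the filter kept, and the mean over probe sets. On simulated arrays of the 18629 probe sets the fit called 37.3% of true log2 differences of 0.4, 87.1% of 0.8 and 98.5% of 1.6. The simulated noise was normal and independent for each probe set, with no outlying array. The real arrays may depart from this, so these rates check the fit and do not give its power on these data. Of the probe sets, 20826 had 1 symbol, 436 several and 9780 none; symbols were updated through Entrez identifiers (GRCr8 gene table) for 20758, and no coordinates were used. The members, lists, pairs and the rule for named genes were chosen with earlier results of these data known. That rule gives values for the 20 genes with the smallest p, 3 others (Stx1a, Vamp2 and Syt1) whatever their values, tissue genes, and the 4 smallest p of each list. The number of arrays limits the precision.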

Additional observations from a re-analysis of the deposited data

Results flagged for a closer look

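In 4 of 94 groups of 5 pools (47 genes in each condition), 1 pool lay far from the other 4 by Dixon's gap ratio above 0.71, a mark that chance alone gives in about 5% of groups. Of these, 3 were control replicate 5, with signals of 1111 for Rab3a (1019 to 1041 in the other controls), 342 for Rab3b (282 to 291) and 863 for Syp (710.4 to 746). The other was dehydrated replicate 1 for Ptprn2, with a signal of 605 against 442 to 483 in the other dehydrated pools.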

How the results depend on the processing

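The count of exocytosis genes past the threshold was 1 in the fit and 0 with quantile normalization (adjusted p of Pclo 0.0525), without a filter, with the stricter filter (where Pclo was too dim to be tested) and with the mean over probe sets; it ran from 0 to 1 with each array left out. It stayed at 1 under median centring, both larger pseudocounts, no variance trend, the robust fit and array weights. Over all probe sets the count was 108 in the fit, 64 without a filter, 45 without the variance trend, 201 with array weights and 46 to 148 with each array left out. The wider list went from 0 to 1 with array weights (S100a10), and the recycling list and the pairs stayed at 0 in each setting run. For the pairs a steady 0 says little. With all 10 arrays, 3 pairs at the smallest possible exact permutation p of 0.0079 would be needed to pass. Differences near 0 changed sign, with no call in any. Stx1a was at 0.0092 with array weights and from -0.19 to 0.037 with each array left out, Vamp2 at 0.026 and from -0.10 to 0.067, and Syt1 at 0.013 and from -0.082 to 0.054. Sv2b was at -0.12 with the mean over probe sets, Rab27b at -0.0051 and Stxbp5 at 0.19 at another probe set. The cause of these changes was not tested. Among the values of named genes under alternatives, 436 kept their direction and side of the threshold, 13 lost the call and 14 changed sign. No scaling moved the median of all probe sets by over 0.02. No paired analysis was possible because the labels give no replicate numbers that the groups share.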
